A study of Macaca mulatta with 30 samples.

Results

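Tissue inhibitors of metalloproteinases (TIMPs) and matrix metalloproteinases (MMPs) were followed in RNA-seq read counts from lung and hippocampus of fetal rhesus macaques after betamethasone was given to the mother. The set held 9 genes, chosen by name with earlier results of these data known and matched by Ensembl rhesus gene symbol. They were the inhibitors TIMP1, TIMP2, TIMP3 and TIMP4, and the proteinases MMP2, MMP9, MMP11, MMP14 and MMP15. Of these, 8 had a value in both count tables, of 30246 gene identifiers in lung and 32386 in hippocampus. TIMP3 matched no identifier of either table and was not analysed here. All 8 genes with values passed the filter on low counts in lung, and 7 passed it in hippocampus, where MMP9 did not.

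The study compared fetuses of mothers injected intramuscularly with saline, with CEL (Celestone, the clinical drug, betamethasone phosphate plus betamethasone acetate, 0.25 mg/kg) or with BAC (betamethasone acetate alone, 0.125 mg/kg). Lung was taken 4 h or 5 days after CEL, 6 h or 5 days after BAC, and from saline controls, with 3 animals in each of the 5 groups. The lung labels give gestational days 124 to 130, while the mean ages at delivery in the paper lie above that range. Hippocampus was taken 5 days after injection in 3 groups of 5 animals, named CTL (saline), BAC and CEL, at gestational days 130 to 136 by the labels. Replicates 1 to 3 of lung saline, CEL 5 days and BAC 5 days came from the same 9 animals as replicates 1 to 3 of hippocampus CTL, CEL and BAC, although the labels give the tissues different ages.

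In hippocampus the treatment and dose fields of the labels are the other way round from the library names: BAC libraries carry the mixture at 0.25 mg/kg and CEL libraries the acetate at 0.125 mg/kg. The groups here follow the library names, which match the lung labels of the shared animals, and a swap would exchange CEL and BAC in every hippocampus sentence. Drug, dose and time cannot be told apart between lung CEL at 4 h and BAC at 6 h, since all differ, and drug and dose cannot be told apart at 5 days. In hippocampus, CTL replicates 1, 2 and 4 came from sequencing runs that hold no BAC or CEL library. For these libraries run and treatment cannot be told apart, which bears on every hippocampus comparison with CTL.

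MMPs are zinc-dependent endopeptidases made as inactive proenzymes that cut collagens, laminins, proteoglycans and cell-surface proteins, and TIMPs bind their active sites. MMP14 on the cell surface, with TIMP2 as a bridge, activates the proenzyme of MMP2, and MMP15 is a related membrane-anchored enzyme. In the developing lung this system takes part in remodelling the matrix as airspaces form, and in brain it acts at vessels, meninges and synapses.

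Reads on genes, in units of 1000000 reads, numbered 14.1 to 45.0 per lung library (median 21.7) and 18.3 to 29.3 per hippocampus library (median 23.7). Values are CPM, counts per 1000000 reads, after TMM scaling within a tissue, so they compare libraries for 1 gene and not genes with each other. At these depths 3 reads came to 0.178 CPM in saline replicate 1 and to 0.155 CPM in hippocampus CEL replicate 5, a limit that covers counting error only. Fold changes are on the log2 scale, first group minus second, from edgeR's quasi-likelihood F-test in 1 fit of the 15 libraries of a tissue. To pass, a gene needed a change of 1.5-fold or more, an unadjusted p under 0.05 and, after adjustment over every tested gene (17644 in lung, by Storey's method, and 17390 in hippocampus, by Benjamini-Hochberg), a p under 0.1. The p-values set a difference between groups against the spread between animals within groups. In hippocampus that spread also holds any difference between sequencing runs.

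Markers of the labelled tissues were present. The 9 lung epithelium markers summed to between 7282 and 18634 CPM in lung libraries, with SFTPC the most abundant, and to between 243 and 407 CPM in hippocampus. The 10 hippocampal neuron markers, led by SNAP25, summed to between 1814 and 2873 CPM in hippocampus and, for the 9 with a value there, to between 3.94 and 11.4 CPM in lung. FKBP5, a gene induced by glucocorticoid receptor and used here to check treatment, stood at 5.83, 5.27 and 5.72 CPM in lung saline, at 219, 120.2 and 179 CPM 4 h after CEL, and at 18.9, 31.2 and 106 CPM 6 h after BAC. At 5 days it lay between 5.78 and 6.68 CPM in both drug groups, so among lung groups FKBP5 told treatment apart only at the early times. In hippocampus CEL against CTL 0 of 3 tested check genes passed by edgeR, with 1 at an unadjusted p under 0.05 and 0 by DESeq2, so these genes did not tell the hippocampus groups apart.

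One hippocampus library stood apart. In CTL replicate 5 the choroid plexus markers (5 of 8 listed had a value) summed to 1108 CPM, against 8.36 to 29.8 CPM in the other 14 libraries, and CLIC6, the most abundant of them, reached 421 CPM against at most 3.25 CPM elsewhere. Its smooth muscle and pericyte markers (8 of 8, led by PDGFRB) summed to 348 CPM, against 149.6 to 227 CPM elsewhere. Its endothelium markers (7 with a value) summed to 404 CPM, against at most 274 CPM elsewhere. Its meninges markers (9 of 10, led by COL1A2) summed to 818 CPM, which was passed by BAC replicate 2 at 1050.5 CPM. This library was also the highest of its group for TIMP1, TIMP4, MMP2, MMP9, MMP14 and MMP15, so each tested member's difference between hippocampus CEL and CTL is given with and without it.

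Among the inhibitors, TIMP4, the family member with the most restricted expression, was close to absent in saline lung. It read 0, 0.89 and 0 CPM in saline replicates 1 to 3, from 0, 13 and 0 reads. After CEL at 4 h it read 2.32, 1.87 and 3.44 CPM, from 100, 25 and 55 reads. Every CEL 4 h library lay above every saline library. TIMP4 rose by 3.20 (SE 1.02, 95% interval 1.00 to 5.39), with an adjusted p of 0.0599 by edgeR with Storey's method, from 0.297 ± 0.514 to 2.54 ± 0.811 CPM (SD, n = 3 each). In bulk tissue, here and below, more cells of a type and more RNA per cell cannot be told apart. The call rested on few reads: it passed in 8 of 12 alternatives, with adjusted p between 0.00585 and 0.172. It was lost without saline replicate 1 (0.172), without saline replicate 3 (0.167), without CEL 4 h replicate 3 (0.123), and when only the 2 groups were fitted (0.146). Without saline replicate 2 both remaining controls had 0 reads, and the fitted value of 8.93 depends on the prior count and is no bound.

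At 6 h after BAC, TIMP4 read 0.81, 1.95 and 1.93 CPM. BAC replicate 1 lay below the saline replicate 2 value, so the groups overlapped, and the difference of 2.50 (95% interval 0.31 to 4.70) did not pass, with an adjusted p of 0.297 by edgeR with Storey's method. At 5 days after CEL it read 0.23, 0.438 and 0.384 CPM, within the saline range. At 5 days after BAC it read 2.27, 0.27 and 0.663 CPM, with replicate 1 as high as the early libraries and replicates 2 and 3 inside the saline range. Differences from saline at 5 days were 0.38 (95% interval -1.97 to 2.72) for CEL and 1.95 (95% interval -0.26 to 4.16) for BAC, intervals that leave a change of several fold in place. From low to high the TIMP4 group means ran saline (0.297 CPM), CEL 5 days (0.351), BAC 5 days (1.07), BAC 6 h (1.56) and CEL 4 h (2.54), and each neighbouring pair overlapped.

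TIMP1, a secreted inhibitor that blocks membrane-anchored MMPs poorly, read 96.8, 94.4 and 74.9 CPM in saline lung. At 4 h after CEL it read 68.2, 98.9 and 85.8 CPM, and at 6 h after BAC 94.1, 93.7 and 84.7 CPM. All 5 lung groups overlapped, and the remaining 6 libraries, from 5 days, lay between 80.6 and 98.0 CPM. Its difference from saline was -0.08 (95% interval -0.36 to 0.20) for CEL at 4 h. For BAC at 6 h it was 0.03 (95% interval -0.24 to 0.31), so a change of 1.5-fold lay outside both intervals.

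TIMP2, an inhibitor that also helps to activate MMP2, read 134, 103 and 137 CPM in saline lung. It read 117, 93.9 and 124 CPM 4 h after CEL, and 132, 121 and 122 CPM 6 h after BAC. Groups overlapped throughout, and the 5-day libraries lay between 104 and 136 CPM. The differences from saline were -0.16 (95% interval -0.43 to 0.12) for CEL at 4 h and 0.00 (95% interval -0.28 to 0.28) for BAC at 6 h. Neither TIMP1 nor TIMP2 passed in any of the 8 lung comparisons.

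MMP2, gelatinase A, read 1637, 1442 and 1479 CPM in saline lung, and the other 12 lung libraries lay between 1131 (BAC 6 h replicate 3) and 1636 CPM. Group means ran from 1379 ± 98.2 CPM (SD, n = 3) 4 h after CEL to 1528 ± 95.7 CPM 5 days after CEL, and no neighbouring pair in that order differed beyond its spread. The difference from saline was -0.14 (95% interval -0.40 to 0.12) for CEL at 4 h and -0.12 (95% interval -0.38 to 0.14) for BAC at 6 h. MMP9, gelatinase B, a product of neutrophils among other cells, was scarce: saline libraries read 1.07, 0.822 and 0.502 CPM. After CEL at 4 h they read 0.463, 0.523 and 0 CPM, from 20, 7 and 0 reads. Only CEL 4 h replicate 3 of the 15 lung libraries had no read of MMP9, where 3 reads would be 0.188 CPM. The difference of -1.20 for CEL at 4 h had a 95% interval from -2.92 to 0.51. For BAC at 6 h the value was 0.03 (95% interval -1.57 to 1.63), so both intervals left a change of several fold in MMP9 in place.

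MMP11, stromelysin-3, which is activated inside the cell by furin, read 30.7, 39.3 and 23.0 CPM in saline lung. It read 16.7, 32.5 and 19.0 CPM 4 h after CEL, where replicate 2 lay inside the saline range and replicates 1 and 3 below it. The difference of -0.46 (95% interval -1.06 to 0.15) did not pass, with an adjusted p of 0.293 by edgeR with Storey's method. Without CEL 4 h replicate 2 it passed, at -0.81 with an adjusted p of 0.0993 (0.0993 to 0.532 over 12 alternatives). At 6 h after BAC the difference was -0.26 (95% interval -0.85 to 0.34).

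Of the membrane-anchored enzymes, MMP15 fell early after CEL. MMP15 read 177, 179.8 and 177 CPM in saline replicates 1 to 3, a spread of 1.67 CPM (SD). At 4 h after CEL it read 54.3, 87.9 and 99.3 CPM. At 6 h after BAC it read 144, 154 and 119 CPM. Each CEL 4 h library lay below each BAC 6 h library, and each of those below each saline library, with CEL 4 h replicate 1 the lowest of the 15. MMP15 differed from saline by -1.15 (SE 0.19, 95% interval -1.56 to -0.74) at 4 h after CEL, with an adjusted p of 0.00174 by edgeR with Storey's method, and it passed in all 12 alternatives tried (-1.34 to -0.94). For BAC at 6 h the difference of -0.35 (95% interval -0.76 to 0.05) did not pass, with an adjusted p of 0.372 by edgeR with Storey's method, although the groups did not overlap.

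At 5 days after CEL, MMP15 read 216, 174 and 151 CPM, and 5 days after BAC it read 178, 175 and 217 CPM. Both groups spread around the saline values, on either side for each drug. The difference from saline at 5 days was 0.02 (95% interval -0.39 to 0.42) for CEL. For BAC it was 0.09 (95% interval -0.31 to 0.50). In order, the MMP15 means were 80.5 ± 23.4 CPM at CEL 4 h, 139 ± 18.2 at BAC 6 h, 178 ± 1.67 in saline, 179.9 ± 33.0 at CEL 5 days and 189.8 ± 23.6 at BAC 5 days (SD, n = 3 each). Of neighbours in this order, CEL 4 h and BAC 6 h differed by the test, BAC 6 h and saline did not pass although they did not overlap, and the others overlapped.

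MMP14, the activator of MMP2, read 476, 433 and 489 CPM in saline lung and 377, 411 and 412 CPM 4 h after CEL. All 3 CEL libraries lay below all 3 saline libraries, but by less than 1.5-fold: the difference was -0.22 (95% interval -0.46 to 0.02), with an adjusted p of 0.220 by edgeR with Storey's method. At 6 h after BAC it read 536, 484 and 383 CPM, on both sides of saline, with a difference of 0.01 (95% interval -0.23 to 0.25). At 5 days the 6 libraries lay between 417 and 520 CPM.

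**Figure D1:**
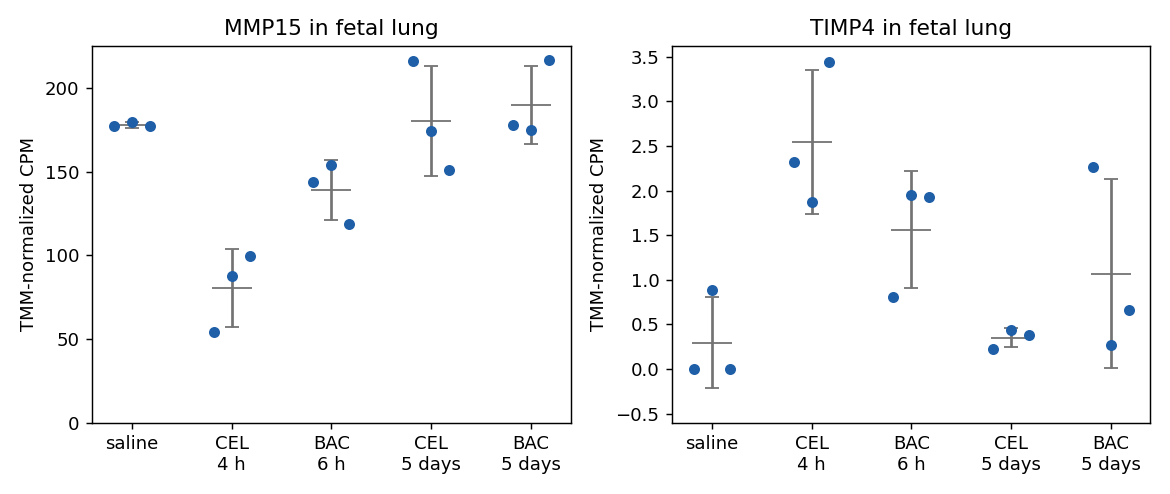
CPM of MMP15 and TIMP4 in each of the 15 lung libraries by group, with points for libraries, the wide bar for the group mean and error bars for 1 SD (n = 3). MMP15 at CEL 4 h lies between 54.3 and 99.3 CPM, below every other library, and TIMP4 at CEL 4 h lies between 1.87 and 3.44 CPM, above every saline and CEL 5-day library.

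Counted over the set, 2 of the 8 tested members passed for lung CEL at 4 h against saline (MMP15 lower, TIMP4 higher), beside 7.40% of all tested genes, and both also passed by DESeq2. The median difference of the 8 was -0.19, beside 0.02 over all tested genes. For lung BAC at 6 h against saline 0 of 8 passed by edgeR, beside 0.442% of all genes, with 1 member (TIMP4) at an unadjusted p under 0.05 and 0 members by DESeq2. In lung CEL at 5 days against saline 0 of 8 passed by edgeR, beside 0% of all genes, with 0 members at an unadjusted p under 0.05 and 0 by DESeq2, although 775 genes in all had an unadjusted p under 0.05 and 16 passed by DESeq2. In lung BAC at 5 days against saline 0 of 8 passed by edgeR, beside 0.00567% of all genes (1 gene), with 0 members at an unadjusted p under 0.05 and 0 by DESeq2. At 5 days the 8 differences ran from -0.19 to 0.38 for CEL and from -0.06 to 1.95 for BAC. These 4 comparisons share the 3 saline animals. The members were chosen with earlier results of these data known, so their counts beside the share of all genes, here and below, are a description and no test.

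Some markers of cell types also differed between CEL 4 h and saline. The lung epithelium markers (9 of 9 with a value) summed to 18634, 12474 and 14456 CPM in CEL 4 h replicates 1 to 3, against 7282, 8005 and 10650.2 CPM in saline, and 2 of the 9, SFTPC and ABCA3, passed as higher. At 6 h after BAC these sums were 13328, 9536 and 13985 CPM, and at 5 days 8504 to 11664 CPM after CEL and 11073 to 12712 CPM after BAC, the latter all above saline. Smooth muscle and pericyte markers (8 of 8, led by ACTA2) summed to 2794, 3326 and 3217 CPM at CEL 4 h, against 3745, 3820.1 and 3330.1 CPM in saline, and 1 of the 8, RGS5, passed as lower. No listed marker of either type was at 3 reads or fewer in all lung libraries. In 3 other lists of lung cell types 1 tested marker each passed, KDR (1 of 7, endothelium) as lower and CD163 (1 of 6, macrophages) and ELANE (1 of 7, neutrophils) as higher, while the summed markers of these 3 types overlapped those of saline. The part of these cell types in the MMP15 and TIMP4 differences was not tested.

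The early groups were set side by side, although drug, dose and time all differ between them. The BAC 6 h group was uneven: replicate 3 was far higher in FKBP5 than replicates 1 and 2, and was also the lowest of its group for MMP15. For lung CEL at 4 h against BAC at 6 h 1 of 8 members passed, beside 6.74% of all genes: MMP15 was lower after CEL by -0.79 on the log2 scale (SE 0.19, 95% interval -1.20 to -0.39), with an adjusted p of 0.0229 by edgeR with Storey's method. It passed in 10 of 12 alternatives, with adjusted p between 0.00328 and 0.124. The call was lost with only the 2 groups in the fit (0.124) and without CEL 4 h replicate 1, where the difference of -0.58 was under 1.5-fold (0.0332). TIMP4 differed by 0.69 (95% interval -1.13 to 2.52) in the same comparison. Of markers of lung cell types, KDR (1 of 7, endothelium) and RGS5 (1 of 8, smooth muscle and pericytes) passed as lower after CEL. LTF and MPO (2 of 7, neutrophils) and AHSP and SLC4A1 (2 of 4, erythroid cells) were also lower. MSLN (1 of 3, mesothelium) was higher, and 0 of 9 lung epithelium markers passed. The part of these cell types in the MMP15 difference was not tested. For lung CEL against BAC at 5 days 0 of 8 members passed by edgeR, beside 0% of all genes, with 0 members at an unadjusted p under 0.05 and 0 by DESeq2, while 556 genes in all had an unadjusted p under 0.05 and 8 passed by DESeq2. There MMP15 differed by -0.08 (95% interval -0.48 to 0.33) and TIMP4 by -1.57 (95% interval -3.59 to 0.45).

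Times were compared within each drug. For lung CEL at 4 h against 5 days 2 of 8 members passed, beside 10.4% of all genes. MMP15 was lower at 4 h, by -1.16 (SE 0.19, 95% interval -1.57 to -0.75), with an adjusted p of 0.00125 by edgeR with Storey's method, and passed in all 12 alternatives tried. TIMP4 was higher at 4 h, by 2.82 (SE 0.95, 95% interval 0.79 to 4.85), with an adjusted p of 0.0520 by edgeR with Storey's method. It passed in 8 of 12 alternatives (adjusted p 0.00492 to 0.156, difference 2.53 to 3.01) and was lost without CEL 4 h replicate 3 and without each of CEL 5 days replicates 1, 2 and 3. Of markers of lung cell types, RGS5 passed as lower at 4 h, SFTPC, CD163 and S100A9 as higher, and KDR and VWF in opposite directions. The part of these cell types in the 2 member differences was not tested. For lung BAC at 6 h against 5 days 0 of 8 members passed by edgeR, beside 0.261% of all genes, with 1 member (MMP15) at an unadjusted p under 0.05 and 0 by DESeq2. MMP15 was -0.45 there (95% interval -0.85 to -0.04), with no overlap and an adjusted p of 0.502 by edgeR with Storey's method, and TIMP4 was 0.56 (95% interval -1.30 to 2.41).

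In hippocampus MMP2 was the only member that passed for CEL against CTL, and the call was lost without CTL replicate 5. It read 32.8, 41.2, 42.5, 36.7 and 160.3 CPM in CTL replicates 1 to 5. BAC replicates read 49.3, 41.7, 35.0, 31.3 and 70.0 CPM. CEL replicates read 33.3, 26.3, 32.2, 25.1 and 31.4 CPM. CTL replicate 5 lay far above the rest, BAC replicate 5 came next, and CEL replicate 1 overlapped the lowest CTL library. For hippocampus CEL against CTL 1 of 7 tested members passed, beside 7.86% of all genes: MMP2, at -1.08 (SE 0.38, 95% interval -1.89 to -0.27), with an adjusted p of 0.0715 by edgeR with Benjamini-Hochberg adjustment. Without CTL replicate 5 the difference was -0.37 (95% interval -0.78 to 0.04) with an adjusted p of 0.216, and the CTL mean went from 62.7 ± 54.7 CPM (SD, n = 5) to 38.3 ± 4.42 (n = 4), beside 29.7 ± 3.69 in CEL.

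The MMP2 call passed in 12 of 19 alternatives, with adjusted p between 0.0246 and 0.647. Besides CTL replicate 5, leaving out any single CEL replicate from 1 to 5 ended it through the adjusted p (0.105 to 0.133) while the difference held at -1.12 to -1.02, and so did grouping by the treatment field (-0.46, adjusted p 0.647). With sequencing run as a block the value was -1.61 (adjusted p 0.0556), and in the 2 runs that hold all 3 groups it was -1.74 (adjusted p 0.0752). Each of those runs holds a single CTL library: CEL replicates 1 to 3 lay below CTL replicate 3 (42.5 CPM) in one, and CEL replicates 4 and 5 below CTL replicate 5 (160.3 CPM) in the other. Summed meninges markers also moved between groups, at 93.6 to 818 CPM in CTL, 75.0 to 1050.5 CPM in BAC and 51.6 to 119 CPM in CEL replicates 2 to 5, with CEL replicate 1 between CTL replicates 1 (225 CPM) and 2 (366 CPM). The part of choroid plexus, vascular or meningeal tissue in the MMP2 difference was not tested. Against CTL, BAC differed in MMP2 by -0.46 (95% interval -1.26 to 0.33), and without CTL replicate 5 the sign turned, at 0.25 (95% interval -0.16 to 0.66).

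MMP14 was also highest in CTL replicate 5, reading 38.0, 45.0, 47.5, 36.4 and 129 CPM in CTL. BAC libraries read 56.1, 69.2, 52.8, 67.3 and 68.9 CPM, and CEL libraries 51.5, 41.8, 38.0, 48.5 and 48.9 CPM. All 5 BAC libraries lay above all 5 CEL libraries and above the first 4 CTL libraries. CEL differed from CTL by -0.37 (95% interval -0.97 to 0.22), with an adjusted p of 0.391 by edgeR with Benjamini-Hochberg adjustment. It passed only with run as a block, at -0.83 with an adjusted p of 0.0691 (0.0691 to 0.929 over 19 alternatives), and it was 0.13 without CTL replicate 5. MMP9 read 0.0501, 0.156, 0.16, 0.238 and 2.72 CPM in CTL, from 1, 4, 4, 6 and 68 reads, and at most 0.525 CPM in the 10 other libraries, so it was too scarce to test.

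MMP15 in hippocampus read 44.8, 51.0, 47.4, 51.8 and 61.4 CPM in CTL and lay between 38.1 and 65.8 CPM in the other groups. CEL differed from CTL by -0.13 (95% interval -0.38 to 0.12), or -0.06 without CTL replicate 5, so the lung decrease at 4 h had no counterpart of that size 5 days after CEL in hippocampus, though time and tissue both differ and the difference between tissues was not tested. MMP11 read 4.76, 11.2, 4.73, 7.26 and 5.88 CPM in CTL. It read 7.18, 7.05, 7.21, 5.55 and 7.18 CPM in CEL, the narrowest of the 3 groups, and CEL differed from CTL by 0.01 (95% interval -0.49 to 0.51), or -0.04 without CTL replicate 5.

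TIMP2 was the hippocampal inhibitor with the lowest adjusted p for CEL against CTL. It read 159.9, 142, 135, 192 and 104 CPM in CTL, with replicate 5 the lowest. CEL replicates read 111, 131, 113, 97.9 and 98.4 CPM, and BAC replicates 115, 164, 128, 93.9 and 142 CPM. The first 4 CTL libraries lay above all 5 CEL libraries, and CTL replicate 5 lay among the CEL libraries. Of those first 4, replicates 1, 2 and 4 came from runs without a CEL library, so run and treatment cannot be told apart for them. CEL differed from CTL by -0.41 (SE 0.16, 95% interval -0.75 to -0.07), a fold under 1.5, with an adjusted p of 0.102 by edgeR with Benjamini-Hochberg adjustment, and it passed in none of 19 alternatives (-0.51 to -0.10, adjusted p 0.0407 to 0.807). It was -0.51 without CTL replicate 5, still under 1.5-fold, -0.13 with run as a block and -0.10 in the 2 runs that hold all 3 groups. MMP2 and TIMP2 were the 2 members with an unadjusted p under 0.05 in this comparison.

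TIMP1 read 7.16, 8.01, 9.86, 9.56 and 17.5 CPM in CTL. BAC replicates read 10.3, 14.3, 8.98, 13.5 and 11.9 CPM, and CEL replicates 9.29, 6.59, 7.21, 6.91 and 8.57 CPM. BAC libraries tended to be the higher of the 2 drug groups, with an overlap at BAC replicate 3 and CEL replicate 1. CEL differed from CTL by -0.44 (95% interval -0.90 to 0.03), with an adjusted p of 0.190 by edgeR with Benjamini-Hochberg adjustment, over 19 alternatives between 0.0744 and 0.781. Without CTL replicate 5 the difference was -0.17 (95% interval -0.52 to 0.19, adjusted p 0.534). It passed in 1 alternative, run as a block (-0.78, adjusted p 0.0744), where CTL replicate 5 is the single CTL library of 1 of the 2 runs that hold all groups. TIMP4 read 5.06, 5.41, 4.41, 5.35 and 9.44 CPM in CTL and between 3.65 and 9.74 CPM elsewhere, and CEL differed from CTL by -0.20 (95% interval -0.73 to 0.33), or 0.03 without CTL replicate 5.

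The median difference of the 7 tested members for hippocampus CEL against CTL was -0.37, beside -0.02 over all tested genes, and without CTL replicate 5 it was -0.06, beside 0.02. For hippocampus BAC against CTL 0 of 7 passed by edgeR, beside 0% of all genes, with 0 members at an unadjusted p under 0.05 and 0 by DESeq2, while 2133 genes in all had an unadjusted p under 0.05 and 149 passed by DESeq2. The 7 differences ran from -0.46 to 0.18 there, with a median of 0.12. Without CTL replicate 5 they ran from -0.29 (TIMP2) to 0.59 (MMP14, 95% interval 0.33 to 0.86), with a median of 0.25. TIMP1 was then at 0.45 (95% interval 0.10 to 0.80), and these 2, MMP14 and TIMP1, had an unadjusted p under 0.05 but did not pass. For hippocampus CEL against BAC 0 of 7 passed by edgeR, beside 0% of all genes, with 2 members (TIMP1 and MMP15) at an unadjusted p under 0.05 and 0 by DESeq2, while 2346 genes in all had an unadjusted p under 0.05 and 186 passed by DESeq2. All 7 were lower in CEL, from -0.62 to -0.13, with a median of -0.33, beside 0.00 over all tested genes. TIMP1 differed by -0.62 (95% interval -1.08 to -0.15, adjusted p 0.263 by edgeR with Benjamini-Hochberg adjustment), MMP2 by -0.62 (95% interval -1.42 to 0.19) and MMP15 by -0.26 (95% interval -0.51 to -0.01). The comparisons with CTL share the 5 CTL animals.

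**Figure D2:**
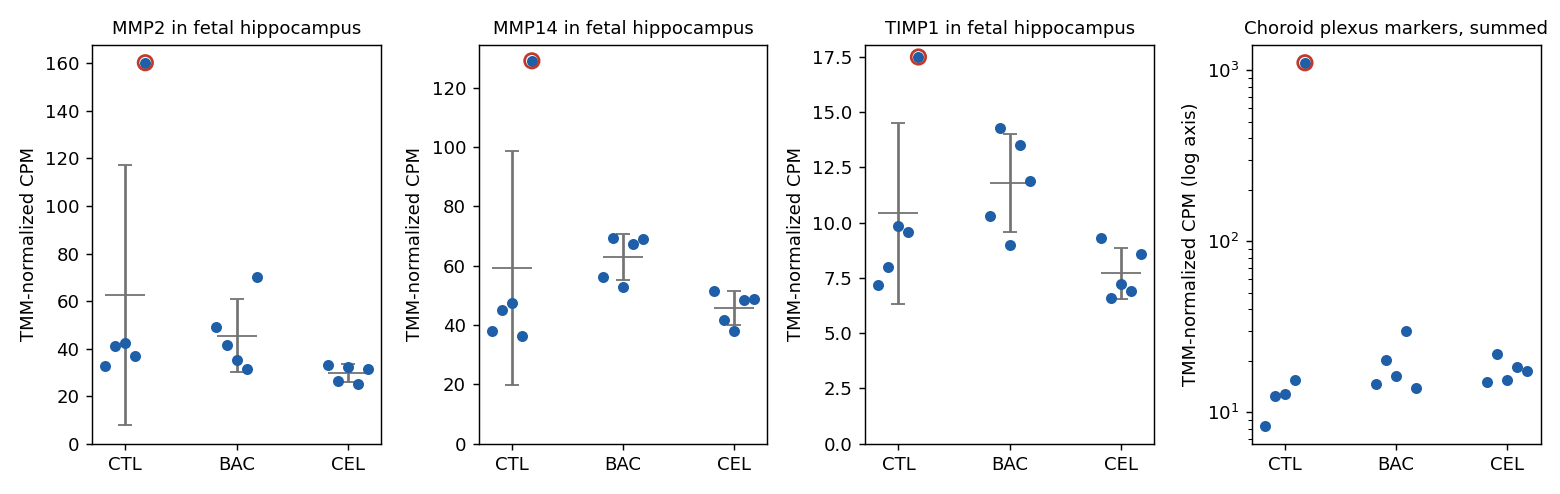
CPM of MMP2, MMP14 and TIMP1, and summed CPM of choroid plexus markers on a log axis, in each of the 15 hippocampus libraries by group (n = 5), with points for libraries, a red circle for CTL replicate 5 and, for the 3 genes, a wide bar for the mean and error bars for 1 SD. That library reads 160.3 CPM for MMP2, 129 CPM for MMP14 and 1108 CPM for the summed markers.

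**Figure D3:**
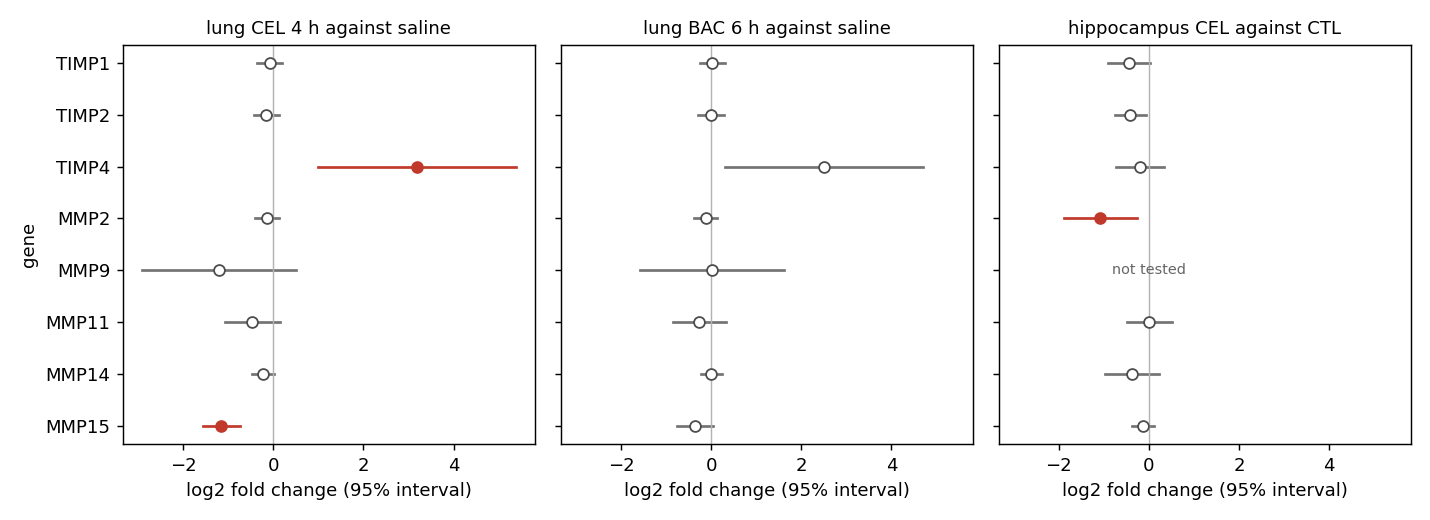
Log2 fold change of each tested member with its 95% interval for lung CEL 4 h and BAC 6 h against saline and hippocampus CEL against CTL, on 1 shared scale, with filled red points for those that passed. MMP15 and TIMP4 passed for lung CEL at 4 h and MMP2 for hippocampus CEL.

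Levels in the 3 saline animals with both tissues can be read side by side for 1 gene at a time, but each tissue was scaled on its own and no test was made. MMP2 lay between 1442 and 1637 CPM in lung and between 32.8 and 42.5 CPM in hippocampus of these animals. MMP14 lay between 433 and 489 CPM in lung and between 38.0 and 47.5 CPM in hippocampus. TIMP4 went the other way, at 0 to 0.89 CPM in lung and 4.41 to 5.41 CPM in hippocampus, while TIMP2 lay at 103 to 137 CPM in lung and 135 to 159.9 CPM in hippocampus. Reads of overlapping genes bear on these levels: in the RefSeq annotation of T2T-MMU8v2.0, TIMP1 overlaps the neuronal gene SYN1 and TIMP4 overlaps SYN2. The strand setting of the counts is not stated, so reads from such neighbours cannot be told apart.

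Genes that work with the set were read from 5 lists. The lists too were chosen with earlier results of these data known, so their counts beside the share of all genes are a description and no test. Of 18 other MMP genes, 8 were tested in lung, and 3 passed for CEL at 4 h against saline, all higher (median 0.46, beside 0.02 over all genes, of which 7.40% passed). MMP19 rose from 49.8, 43.6 and 52.4 CPM in saline to 139, 132 and 149 CPM, by 1.53 (SE 0.17). MMP28 rose by 0.72 (SE 0.11). MMP24, a membrane-anchored enzyme like MMP15, rose by 0.96 (SE 0.33), but was lost without CEL 4 h replicate 2 or 3 or saline replicate 1 or 3 (0.80 to 1.26 with 1 library left out), and with no filter, the other adjustment or only the 2 groups fitted.

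Among 27 tested ADAM and ADAMTS genes, 4 were higher and 2 lower for CEL at 4 h against saline (median -0.06). TIMPs also inhibit some, not all, of the proteins of this list, to differing degrees. ADAMTS1, which cuts versican, rose from 102, 136 and 121 CPM to 421, 308 and 394 CPM, by 1.65 (SE 0.25). ADAM19 fell by 0.77, ADAMTS14 rose by 0.76, and ADAMTS6 rose by 0.70, the last lost without saline replicate 1 (0.58 to 0.82 with 1 library left out). The other 2, ADAMTS9 (higher) and ADAMTS7 (lower), are named because the counts are small, after their values were seen. ADAMTS9 was lost without CEL 4 h replicate 2 or 3 or any 1 saline replicate (0.53 to 0.67 with 1 library left out), and with no filter or the other adjustment, and ADAMTS7 without saline replicate 2 (-0.84 to -0.49). Among 9 plasminogen system genes, whose plasmin can activate proMMPs, PLAU, the activator urokinase, was lower by -1.13 (SE 0.35), and was lost without CEL 4 h replicate 1 or 2 or saline replicate 2 (-1.34 to -0.91 with 1 library left out). The median of the 9 was -0.12.

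Among 9 tested other regulators of MMPs, TFPI2 was lower by -1.65 (SE 0.27) and no other passed (median -0.01). Of 20 tested matrix glycoproteins and proteoglycans, LAMB1, a laminin chain, rose from 724, 692 and 729.8 CPM to 2779, 1781 and 2286 CPM, by 1.67 (SE 0.18). VCAN (versican) was lower by -0.59 (SE 0.16), and was lost without CEL 4 h replicate 1 or saline replicate 3 (-0.72 to -0.40 with 1 library left out). Their median was 0.03.

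At 6 h after BAC, ADAMTS1 (1.47) and LAMB1 (0.97) were the 2 genes of the 5 lists that passed against saline, both higher. ADAMTS1 was lost without saline replicate 1, and LAMB1 without any 1 of the saline replicates or BAC 6 h replicate 3 (1.03 to 1.65 and 0.71 to 1.09 with 1 library left out), and both were lost with only the 2 groups fitted. Over all genes 0.442% passed. By DESeq2 7 of the 73 tested genes of the 5 lists passed there, beside 247 genes in all. At 5 days 0 of the 73 tested genes of the 5 lists passed against saline by edgeR for either drug, with 4 (CEL) and 6 (BAC) at an unadjusted p under 0.05 and 0 by DESeq2, and for CEL against BAC at 5 days these counts were 0, 3 and 0. Over all genes 0% (CEL), 0.00567% (BAC) and 0% (CEL against BAC) passed, and 4.39%, 6.42% and 3.15% had an unadjusted p under 0.05. For CEL at 4 h against BAC at 6 h, MMP7 (1.22), MMP24 (1.07), MMP19 (0.83), ADAMTS3 (1.05) and LAMB1 (0.71) were higher after CEL, and ADAMTS18 (-1.70), ADAMTS12 (-0.80), BSG (-0.61) and VCAN (-0.72) lower. Of these 9, MMP19, ADAMTS18 and VCAN passed with each single library left out and the other 6 did not: MMP7 (0.95 to 1.60 with 1 library left out) was lost without CEL 4 h replicate 2 or BAC 6 h replicate 2 or 3, MMP24 (0.93 to 1.20) without CEL 4 h replicate 2 or 3 or BAC 6 h replicate 3, and ADAMTS3 (0.64 to 1.25) without CEL 4 h replicate 1 or BAC 6 h replicate 3. LAMB1 (0.54 to 0.97) was lost without CEL 4 h replicate 1 or BAC 6 h replicate 1, ADAMTS12 (-1.17 to -0.50) without CEL 4 h replicate 2 or 3 or BAC 6 h replicate 2, and BSG (-0.83 to -0.46) without CEL 4 h replicate 2 or 3 or BAC 6 h replicate 1 or 3. With only the 2 groups fitted MMP7, ADAMTS3, LAMB1, ADAMTS12 and BSG did not pass, nor did BSG with no filter or the other adjustment. Over all genes 6.74% passed.

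For CEL at 4 h against 5 days 19 of the 73 passed, beside 10.4% of all genes. MMP19 (1.45), MMP24 (1.20), MMP28 (1.00), ADAMTS1 (1.30), ADAMTS9 (0.94), ADAMTS14 (0.88), SERPINF2 (2.39) and LAMB1 (1.72) were higher at 4 h. ADAMTS18 (-1.63), PLAU (-1.26), TFPI2 (-1.34) and VCAN (-0.65) were lower. ADAMTS3 and ADAMTS6 were also higher, and ADAM19, ADAMTS7, ADAMTS8 and ADAMTS12 also lower, named after their values were seen. SERPINF2 was lost without CEL 4 h replicate 2 or CEL 5 days replicate 1 or 2 (2.06 to 2.64 with 1 library left out), PLAU without CEL 5 days replicate 1 (-1.55 to -0.94) and VCAN without CEL 5 days replicate 2 (-0.74 to -0.56). ADAMTS12 was lost without CEL 4 h replicate 2 or 3 or any 1 CEL 5 days replicate (-1.05 to -0.39), and with no filter, the other adjustment or only the 2 groups fitted. ADAMTS3 was lost without CEL 4 h replicate 1 or CEL 5 days replicate 1 or 3 (0.45 to 1.04), and with no filter. ADAM19 was lost without CEL 4 h replicate 1 or CEL 5 days replicate 1 or 2 (-0.77 to -0.45), and ADAMTS8 without CEL 4 h replicate 2 or CEL 5 days replicate 3 (-0.80 to -0.47). For BAC at 6 h against 5 days ADAMTS1 (1.81) and LAMB1 (0.98) passed, both higher at 6 h, and LAMB1 was lost without any 1 of the BAC 5 days replicates or BAC 6 h replicate 3 (0.73 to 1.11). Both were lost with only the 2 groups fitted, and 0.261% of all genes passed.

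In hippocampus CEL against CTL, 0 of 8 tested other MMP genes and 0 of 8 plasminogen system genes passed by edgeR, with 0 of either at an unadjusted p under 0.05 and 0 by DESeq2. Of 28 ADAM and ADAMTS genes 6 were lower (median -0.40, beside -0.02 over all genes, of which 7.86% passed in either direction), led by ADAM22 (-1.01), ADAMTS6 (-0.89), ADAMTS2 (-0.87) and ADAM12 (-0.69). Without CTL replicate 5, a check chosen after its values were seen, 3 passed, all among the 6: ADAMTS2, ADAM19 and ADAM22. Of 20 matrix glycoproteins 8 were lower (median -0.60), among them DCN (-1.17), HSPG2 (-1.06) and NID2 (-0.84), and without CTL replicate 5 there were 5, all among the 8, with a median of -0.32. In the same comparison 3 of 9 tested meninges markers (COL1A1, DCN and COL1A2) and 4 of 7 tested fibroblast markers (the same 3 and COL3A1) passed as lower. Without CTL replicate 5 only 1 of each of these 2 lists passed. Of choroid plexus markers 4 of 5 passed as lower (1 passed without that library), and of cartilage markers 3 of 5 (2 without it). Microglia markers went the other way, with 2 of 3, P2RY12 and C1QC, higher (2 passed without that library). Some other lists had 1 marker each that passed, in either direction. DCN is thus in the meninges and fibroblast lists as well as a matrix gene. The part of any of these tissues or cell types in these differences was not tested. Of 8 other regulators SPOCK1 was lower (-0.78), with and without that library. Of the named genes, ADAM22 and SPOCK1 passed with each of the 10 single libraries left out, ADAMTS6 was lost without CTL replicate 5, DCN without CEL replicate 3 and HSPG2 without either of these 2 (ADAMTS6 -1.01 to -0.53, DCN -1.42 to -0.98 and HSPG2 -1.18 to -0.56 with 1 library left out). ADAMTS2 (-1.01 to -0.72) was lost without CTL replicate 4 or CEL replicate 1, 2 or 3. ADAM12 (-0.80 to -0.41) was lost without CTL replicate 1, 3 or 5 or any 1 CEL replicate, and NID2 (-0.98 to -0.22) without CTL replicate 1 or 5 or any 1 CEL replicate. ADAM19 (-0.76 to -0.49) was lost without CTL replicate 2 or 4 or CEL replicate 1, 3 or 4. With run as a block ADAM22, ADAMTS2, ADAM19, DCN and SPOCK1 did not pass, and in the 2 runs that hold all 3 groups ADAM12 did not pass either. NID2 was also lost with RLE, no filter and only the 2 groups fitted, ADAM12 with no filter, and each gene named here with groups by the treatment field. For BAC against CTL 0 of the 72 tested genes of the 5 lists passed by edgeR, with 14 at an unadjusted p under 0.05 and 1 by DESeq2 (ADAM22), beside 0% of all genes that passed and 12.3% at an unadjusted p under 0.05. For CEL against BAC 0 of 72 passed by edgeR, with 8 at an unadjusted p under 0.05 and 2 by DESeq2 (ADAMTS2 and DCN), beside 0% and 13.5% of all genes.

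Genes whose levels ran most like each TIMP over the 15 libraries of a tissue are given as a description, since the points share groups, animals and scaling. In lung, over 11213 genes, TIMP1 ran with TUBG1 (r 0.84), STRADA (0.83) and APEH (0.81), and TIMP2 with GOSR2 (0.84), FUCA1 (0.83) and PSAP (0.81). TIMP4 ran with EHF (0.85), BDH1 (0.83) and CCN3 (0.83), values that were 0.60, 0.56 and 0.74 once group means were removed. In hippocampus, over 12041 genes, TIMP1 ran with FCGRT and the member MMP14 (0.87 each), both at 0.81 without CTL replicate 5. TIMP2 ran with CDH13 (0.93), CHGB (0.92) and CMIP (0.92), and TIMP4 with PDLIM4 (0.93), TACC3 (0.92) and CDC20 (0.89).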

How the data were processed

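The deposited files hold raw read counts per gene, made by the authors with Bowtie and featureCounts, 1 table per tissue (30 libraries). For lung the labels name Bowtie 1.2.1.1 and featureCounts 1.5.1, where the paper names Bowtie 2. Identifiers were matched to symbols by the Ensembl rhesus table, which gave a symbol to 52.1% of lung and 54.4% of hippocampus identifiers. The filter kept genes that reached 7 reads in 3 or more libraries of lung, or in 5 or more of hippocampus. They were tested with edgeR 4.0.16 (limma 3.58.1, R 4.3.3), TMM scaling and the quasi-likelihood F-test, and CPM used the same factors. Groups followed library names. Alternatives were RLE scaling, filterByExpr, no filter, the other adjustment, DESeq2 1.42.0, only the 2 groups compared, each library left out and, in hippocampus, run as a block, only the 2 runs with all groups, and groups by the treatment field. No block by replicate was fitted, since replicate numbers link no libraries across groups. The members and lists were chosen with earlier results of these data known. Named genes were all members, up to 4 that passed with the largest fold change per list and comparison, and for each TIMP the 3 genes of highest Pearson r of log2 CPM (prior count 2) among those with a mean of at least 1 CPM. The fit was tested on simulated data. Some genes that these rules would name are not reported here.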

Additional observations from a re-analysis of the deposited data

Results flagged for a closer look

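In groups of 5, 24 groups of member values and 36 groups of summed marker values were checked for a library far from the others, and chance picks about 1 in 20 groups. Among members 6 were picked, 5 of them through CTL replicate 5 of hippocampus. It read 17.5 CPM for TIMP1 (next highest 9.86), 9.44 for TIMP4 (next 5.41), 160.3 for MMP2 (next 42.5), 2.72 for MMP9 (next 0.238) and 129 for MMP14 (next 47.5). The other was CEL replicate 4, at 5.55 CPM for MMP11 where the others lay between 7.05 and 7.21. Among marker sums 3 were picked: CTL replicate 5 for smooth muscle and pericyte markers (348 CPM, next 189) and choroid plexus markers (1108 CPM, next 15.5), and BAC replicate 2 for striatum markers (157 CPM, next 77.1).

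The effect of treatment differed between groups by a test of the difference in 3 cases in lung. MMP15 differed between CEL at 4 h and BAC at 6 h by -0.79 on the log2 scale, and between CEL at 4 h and at 5 days by -1.16. TIMP4 differed between CEL at 4 h and at 5 days by 2.82, from few reads. Since both sides are set against the same saline animals, each difference is that between the 2 treated groups.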

How the results depend on the processing

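Over all 85 fold changes of members, 1167 values were computed under alternatives. Of these 1048 kept direction and side of the threshold, 17 no longer passed, 4 newly passed and 98 had the opposite sign. The 98 lay in 52 fold changes, the largest 0.71 in size, and none passed in either fit. Unless the construction is named, the cause was not tested.

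Opposite signs among values given singly, for lung BAC at 6 h against saline: TIMP2 was -0.01 with RLE, filterByExpr, no filter, DESeq2 and only 2 groups, and MMP14 was 0.00 (just negative) with RLE, filterByExpr and DESeq2 and -0.01 with no filter and only 2 groups. Grouping hippocampus by the treatment field exchanges CEL and BAC by construction. CEL against CTL became 0.18 for TIMP1, 0.13 for TIMP4, 0.09 for MMP14 and 0.12 for MMP15, and CEL against BAC became 0.62 for TIMP1, 0.62 for MMP2 and 0.26 for MMP15.

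With 1 library left out, fold changes ran from -0.22 to 0.05 for TIMP1 at CEL 4 h. For BAC 6 h they ran from -0.07 to 0.09 for TIMP1, -0.12 to 0.07 for TIMP2, -0.20 to 0.01 for MMP2, -0.59 to 0.34 for MMP9 and -0.10 to 0.13 for MMP14. For CEL 5 days TIMP4 ran from -0.27 to 6.10, the last with every control at 0 reads and so no bound, and MMP15 from -0.13 to 0.13. MMP15 ran from -0.01 to 0.15 for BAC 5 days and from -0.23 to 0.04 for CEL against BAC at 5 days. In hippocampus CEL against CTL they ran from -0.29 to 0.03 for TIMP4, -0.09 to 0.27 for MMP11 and -0.50 to 0.13 for MMP14, and for BAC against CTL from -0.67 to 0.25 for MMP2.

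Counts of members that passed became 1 for CEL 4 h against saline and 0 for CEL 4 h against BAC 6 h with only 2 groups fitted. In hippocampus CEL against CTL they became 3 with run as a block and 0 by the treatment field, which gave 1 for BAC against CTL. With 1 library left out they ran from 1 to 3 for CEL 4 h against saline, 0 to 1 for CEL 4 h against BAC 6 h, 1 to 2 for CEL 4 h against 5 days and 0 to 1 for hippocampus CEL against CTL.

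Counts of all genes that passed: BAC 6 h against saline gave 247 by DESeq2, 19 with only 2 groups and 9 to 211 with 1 library left out. CEL 5 days against saline gave 1 with no filter, 16 by DESeq2 and 0 to 9 with 1 left out. BAC 5 days against saline gave 2 with no filter, 40 by DESeq2, 7 with only 2 groups and 0 to 2 with 1 left out. CEL 4 h against BAC 6 h gave 724 with no filter, 314 with only 2 groups and 667 to 1971 with 1 left out. CEL against BAC at 5 days gave 8 by DESeq2 and 0 to 1 with 1 left out. BAC 6 h against 5 days gave 29 by the other adjustment, 185 by DESeq2, 9 with only 2 groups and 5 to 98 with 1 left out. Hippocampus CEL against CTL gave 229 in 2 runs and 0 by the treatment field. BAC against CTL gave 1 by the other adjustment, 149 by DESeq2, 18 in 2 runs, 1366 by the treatment field and 0 to 184 with 1 left out, and CEL against BAC gave 186 by DESeq2 and 13 with run as a block. The checks of companion lists and of r without CTL replicate 5 were chosen after seeing the data.

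Groups of 3 and the few reads of TIMP4 and MMP9 limit the lung comparisons. A p that misses the threshold does not show that values did not differ. Hippocampus was sampled at 5 days alone, and its group names and treatment fields disagree. RNA counts give no measure of protein, proenzyme activation or inhibition.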
